A study of Mus musculus with 23 samples.

Results

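The 9 genes described here are the transcriptional repressors of the mammalian circadian clock and the factors of its D-box output, namely Per1, Per2, Per3, Cry1, Cry2, Nr1d1, Nr1d2, Dbp and Nfil3. They were chosen by gene, with earlier results of these data known, and a probe was taken where its RefSeq transcript belonged to one of these genes. This gave 10 of the 55681 non-control probes on the array and 9 of the 20145 genes that could be named. Each gene had 1 probe except Dbp, which had 2, and the brighter Dbp probe is given unless the other is named.

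TM4 cells, an immortalized mouse line derived from Sertoli cells, the somatic support cells of the seminiferous tubule, were exposed for 48 hours to a plasticizer at 100 μM in 1.0% DMSO or to 1.0% DMSO alone. The compounds were MEHP, the active monoester metabolite of the phthalate DEHP, DINCH, a commercial cyclohexane dicarboxylate diester, DOM, a dioctyl maleate, DOS, the dioctyl succinate, and BDB, a butanediol dibenzoate. Total RNA was labelled with Cy3 and each sample was hybridised to its own 1-colour Agilent array, 4 to a group, except that DOS had 3 (replicates 1, 3 and 4). The series calls the samples of a group biological replicates, all of them come from 1 cell line, and there was 1 dose and 1 time point. Every group received fresh medium when treatment began, and the hour of harvest is not given in the sources used here. A change in the phase of a rhythmic transcript and a change in its mean level therefore cannot be told apart, nor can fewer expressing cells and less RNA per cell.

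The clock is a feedback loop of transcription. CLOCK and BMAL1 (the product of Arntl) bind the E-box and drive the Per, Cry, Nr1d and Dbp genes, the PER and CRY proteins return to the nucleus to inhibit them, and the REV-ERB receptors encoded by Nr1d1 and Nr1d2 repress Arntl and Nfil3 through the ROR element, where the ROR receptors activate. DBP, with its relatives TEF and HLF, activates genes through the D-box, and NFIL3 represses through the same element. Per1 and Per2 are in addition induced within hours by cAMP and glucocorticoid signals. Most testicular somatic cells carry these genes, although rhythms in the testis are known to be weak.

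The E-box, the D-box and the ROR element are among the elements through which these genes act on one another. The member promoters that hold one are therefore shown. Promoter sequence from RefSeq (GRCm38.p6) was at hand for 8 of the 9 genes, as 9 start sites, and the 250 bases before each start were searched on both strands. The E-box (CACGTG) was found before 1 of the 2 starts of Per1 and before Cry1, 160 and 54 bases from the end of the searched stretch, and 6.02% of 32851 promoters of this length hold it. The D-box (TTANGTAA) was found 2 times before Per3, 197 and 150 bases from that end, and 2.06% of promoters hold it. The ROR element (in 0.493% of promoters) and the cAMP element (TGACGTCA, in 1.55%) matched none of the 9 stretches, which says only that these letters are not in these windows. The stretches read 5′ to 3′ on the strand of the gene, with the matched letters in capitals.
Per1 (chr11:69098699-69098948, plus strand): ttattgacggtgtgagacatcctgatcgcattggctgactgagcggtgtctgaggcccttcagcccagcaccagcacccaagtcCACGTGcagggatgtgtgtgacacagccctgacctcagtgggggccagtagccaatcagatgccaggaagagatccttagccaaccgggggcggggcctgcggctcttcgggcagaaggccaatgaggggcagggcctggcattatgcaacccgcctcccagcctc
Per3 (chr4:151044666-151044915, minus strand): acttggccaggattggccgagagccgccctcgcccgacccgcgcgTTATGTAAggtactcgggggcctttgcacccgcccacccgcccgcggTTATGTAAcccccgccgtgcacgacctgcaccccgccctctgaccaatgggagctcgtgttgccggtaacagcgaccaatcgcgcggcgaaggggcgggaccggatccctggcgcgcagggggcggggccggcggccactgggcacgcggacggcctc
Cry1 (chr10:85185055-85185304, minus strand): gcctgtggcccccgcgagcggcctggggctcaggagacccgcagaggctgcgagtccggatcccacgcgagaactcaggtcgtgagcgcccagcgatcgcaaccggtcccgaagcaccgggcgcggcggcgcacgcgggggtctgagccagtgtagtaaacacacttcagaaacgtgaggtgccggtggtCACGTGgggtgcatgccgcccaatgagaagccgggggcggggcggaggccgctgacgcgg

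The signal at the 75th percentile of an array ran from 204.6 to 350.7 over the 23 arrays, between 43.4% and 52.2% of probes were well above background, and no spot was saturated. On 15 of the 23 arrays all quality measures of the image extraction were in range, and on 8 they were not, among them DMSO replicate 4. The arrays lay on 3 slides, with DMSO, DOM and DOS in rows 2 and 4 of a slide and MEHP, DINCH and BDB in rows 1 and 3. Row and treatment therefore cannot be told apart in MEHP, DINCH or BDB against DMSO or in DOM against MEHP or DINCH. MEHP and DINCH were also compared with BDB, which shared their rows. These comparisons with BDB, here and below, were added after the values had been seen. Of 15 Sertoli cell markers, 6 were well above background on all arrays, among them Dhh, Gata4, Inha, Inhbb and Kitl. Rhox5 was on 21, Sox9 on 20, Clu on 12, Gdnf on 3, Amh and Trf on 1 each, and Cldn11, Fshr and Wt1 on none. Markers of other cells were also seen on all 23 arrays, namely Cyp17a1 for Leydig cells, Prm1 for germ cells, Acta2 for peritubular myoid cells and Csf1r for macrophages, while Cyp11a1, Hsd3b1, Ddx4, Dazl, Myh11, Adgre1 and Ptprc were on none.

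Per1 rose with MEHP and DINCH, Dbp rose with DINCH, and Nr1d1 fell with DOM. No member was called with BDB or DOS, although Nfil3 lay higher on every BDB array than on any DMSO array. The limma fit took all probes that were detected in either group and did not pair samples by replicate number. A gene was called where its Benjamini-Hochberg adjusted p was below 0.05 and the change was above 1.5-fold. For MEHP this held for 1 of 8 tested members, beside 1.69% of all genes tested, and for DINCH for 2 of 8, beside 8.26%. For DOM it held for 1 of 7, beside 20.5%, a share of members no higher than that of genes at large. For BDB and DOS it held for 0 of 6 and 0 of 7 members, and for 0% of all genes, and an unadjusted p below 0.05 was reached by 3 members with BDB and by 0 with DOS, beside 19% and 7.73% of all genes. Counted without a test, 1 of 8 members with MEHP, 2 of 8 with DINCH, 2 of 7 with DOM, 2 of 6 with BDB and 0 of 7 with DOS had no array inside the DMSO range. Over all genes tested that share was 14.4% with MEHP, 24% with DINCH, 39.4% with DOM, 12% with BDB and 8.14% with DOS. The median difference from DMSO over the tested members was 0.21 with MEHP, 0.44 with DINCH, -0.39 with DOM, -0.08 with BDB and -0.03 with DOS, where that over all genes lay between -0.03 and 0. These medians leave out members too dim to be tested, and the 5 comparisons share the DMSO arrays. Since the members were chosen with earlier results known, shares of all genes are given here and below for scale and not as a test.

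**Figure D1:**
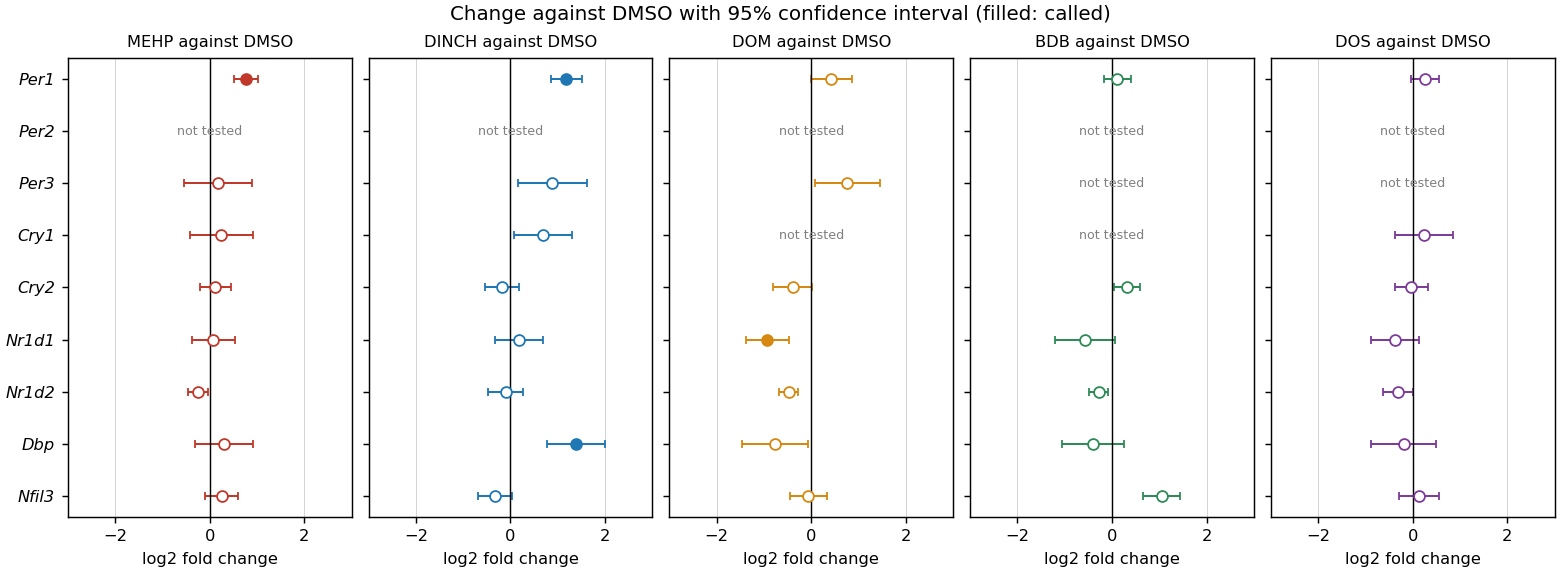
Log2 fold change of each member against DMSO (x axis) for the 5 compounds, with 95% confidence intervals from limma, filled where called. Per1 is filled with MEHP (0.76) and DINCH (1.18), Dbp with DINCH (1.39) and Nr1d1 with DOM (-0.93), and Nfil3 with BDB (1.05) lies far from 0 but is open.

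Levels are given as log2 of the signal over the 75th percentile of the same array, so that 0 is the signal of the probe at that percentile. They are set against each other between groups for 1 probe and not between probes.

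Per1 encodes one of the PER repressors and is an early target of cAMP and glucocorticoid signals. Its log2 level was 2.08, 2.21, 2.39 and 2.52 on the 4 DMSO arrays, 3.01, 3.05, 2.96 and 3.21 on the MEHP arrays and 3.73, 3.20, 3.37 and 3.60 on the DINCH arrays. Every MEHP and every DINCH array lay above every DMSO array. The change was 0.76 (SE 0.11, adjusted p = 0.0163) or 1.69-fold with MEHP and 1.18 (SE 0.15, adjusted p = 0.0036) or 2.26-fold with DINCH. Both were higher within each slide, by 0.95, 0.66 and 0.70 for MEHP and by 1.65, 0.90 and 0.97 for DINCH. Against BDB, in shared rows, Per1 was higher by 0.64 (SE 0.10, adjusted p = 0.0159) with MEHP and by 1.06 (SE 0.14, adjusted p = 0.0026) with DINCH. On the DOM arrays the level was 2.99, 2.55, 2.25 and 3.10, of which 3 lay above all DMSO arrays, and the difference of 0.43 (SE 0.19) had an adjusted p of 0.124. With BDB (2.39, 2.20, 2.44 and 2.63) and DOS (2.44, 2.58 and 2.66) the groups overlapped DMSO, with differences of 0.12 and 0.26. From high to low the group means ran DINCH, MEHP, DOM, DOS, BDB and DMSO, and DINCH and MEHP, next to each other in that order, differed by 0.42 with an adjusted p of 0.122. The MEHP call was lost without MEHP replicate 2 (0.76, adjusted p = 0.0623) and without MEHP replicate 4 (0.71, adjusted p = 0.0572), and also with no filter on dim probes (adjusted p = 0.153). With DINCH Per1 was called in each of the 8 fits that left out 1 array, but not on the arrays in range alone (1.26, adjusted p = 0.0681).

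Per2, the partner of Per1 in the repressor complex, was well above background on 2 of the 23 arrays, 1 of DINCH and 1 of DOS, and was tested in no comparison. Its measured log2 level ran from -6.58 to -4.23, and no order of the groups can be read from it.

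Per3 encodes the PER protein that is least needed for the rhythm itself, and its probe was dim. Its log2 level was -4.41, -4.86, -3.87 and -3.18 on the DMSO arrays, -3.21, -3.34, -3.50 and -2.74 on the DINCH arrays and -3.51, -3.25, -3.31 and -3.20 on the DOM arrays. The DINCH and DOM arrays lay close together above 3 of the 4 DMSO arrays, and DMSO replicate 4 lay among them. The difference from DMSO was 0.89 (SE 0.33, adjusted p = 0.122) for DINCH and 0.76 (SE 0.31, adjusted p = 0.0885) for DOM, and neither was called. Without DMSO replicate 4, one of the arrays not in range, both were called, at 1.18 (adjusted p = 0.0362) for DINCH and 1.06 (adjusted p = 0.00913) for DOM. DINCH replicates 1 and 2 and DOM replicates 3 and 4 were also not in range. On the arrays in range alone, which are fewer, Per3 was called with neither compound. Within slides the difference was 1.20, 1.03 and 0.06 for DINCH and 1.03, 1.06 and -0.02 for DOM, the small values being on the slide of DMSO replicate 4. With the replicate number as a block, DINCH was called at the same 0.89 (adjusted p = 0.0413). MEHP (-4.15, -3.96, -3.83 and -3.67) lay inside the DMSO range with a difference of 0.18. The probe was well above background on 1 of 4 BDB arrays (-4.45, -4.45, -3.61 and -4.33) and 2 of 3 DOS arrays (-4.30, -4.31 and -3.78), and these were not tested against DMSO.

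Cry1 and Cry2 encode the cryptochromes, which repress CLOCK and BMAL1 together with the PER proteins. The Cry1 probe was dim, at -2.88, -3.63, -3.26 and -4.12 on the DMSO arrays, -2.74, -2.55, -3.33 and -2.54 on the DINCH arrays and -3.12, -4.90, -4.17 and -4.02 on the DOM arrays. Of the DINCH arrays 3 lay above all DMSO arrays and of the DOM arrays 2 lay below them, so that both groups overlapped DMSO. The difference with DINCH was 0.69 (SE 0.27, adjusted p = 0.145), and DOM and BDB were not tested against DMSO because the probe was not well above background on every array of either group. Cry2 was bright on all arrays, at 3.40, 2.84, 3.08 and 2.89 on the DMSO arrays and within 3.34 to 3.41 on the 4 BDB arrays. The BDB difference of 0.32 (SE 0.12) had an adjusted p of 0.288, and that of DOM, -0.39 (SE 0.19), one of 0.137. Neither cryptochrome was called against DMSO with any compound.

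**Figure D2:**
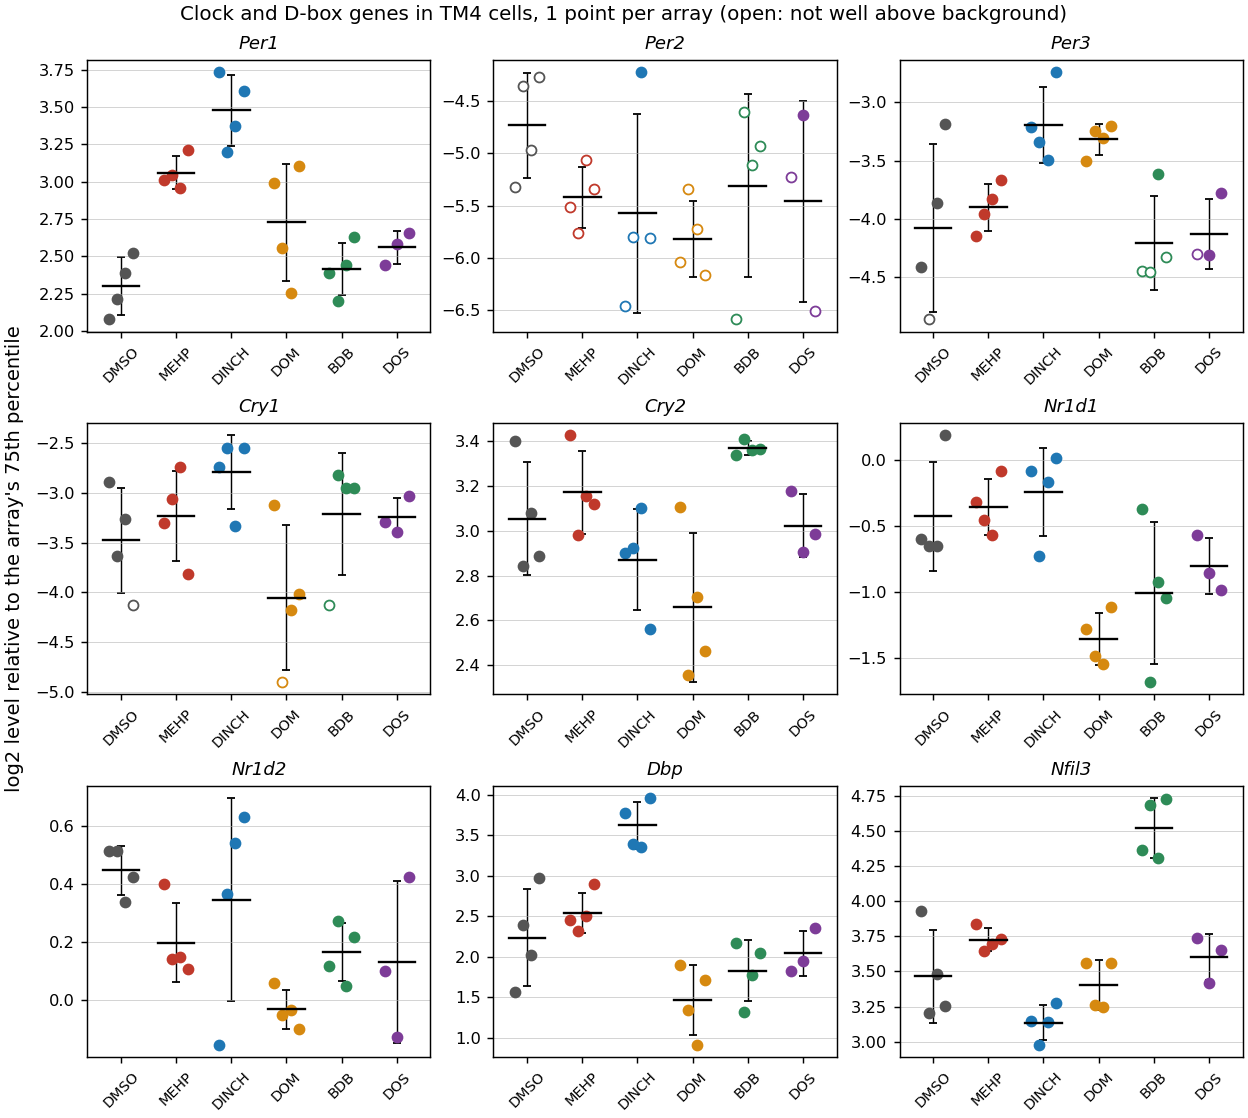
Log2 level of each member relative to the array's 75th percentile (y axis), 1 point per array by group, with the group mean as a line and its SD as a bar, and open points for arrays where the probe was not well above background. The 4 DINCH arrays stand highest for Dbp (3.36 to 3.96) and the 4 BDB arrays for Nfil3 (4.31 to 4.73), the DINCH arrays have the highest mean for Per1 (3.20 to 3.73) but overlap MEHP, and the 4 DOM arrays lie below all DMSO arrays for Nr1d1 (-1.55 to -1.11).

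Nr1d1 and Nr1d2 encode REV-ERBα and REV-ERBβ, haem-binding nuclear receptors without an activating domain. Nr1d1 stood at -0.60, -0.65, -0.65 and 0.19 on the DMSO arrays and at -1.28, -1.48, -1.55 and -1.11 on the DOM arrays. All 4 DOM arrays were below all DMSO arrays, and the highest DMSO array was again replicate 4. Nr1d1 fell by 0.93 on the log2 scale with DOM (SE 0.20, adjusted p = 0.0079), to 1.91-fold lower. The difference was -0.79, -0.90 and -1.30 within the 3 slides and -1.19 and -0.67 within the rows that DOM shared with DMSO. The call held under all 10 other settings and in all 8 fits that left out 1 array, with values from -1.01 to -0.70. On the other arrays Nr1d1 read -0.31, -0.46, -0.57 and -0.08 with MEHP, -0.08, -0.73, -0.16 and 0.02 with DINCH, -0.37, -1.68, -0.92 and -1.05 with BDB, and -0.57, -0.86 and -0.98 with DOS. The MEHP arrays lay inside the DMSO range and so did 3 of 4 DINCH arrays, while 3 of 4 BDB arrays and 2 of 3 DOS arrays lay below them. The BDB difference was -0.58 (SE 0.28, adjusted p = 0.392) and the DOS difference -0.38 (SE 0.22, adjusted p = 0.805).

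Nr1d2 stood at 0.51, 0.51, 0.34 and 0.42 on the DMSO arrays and at 0.06, -0.05, -0.03 and -0.10 on the DOM arrays. The 2 groups did not overlap, as for Nr1d1, and 20.4% of all genes tested lay below DMSO in this way with DOM. The fit gave -0.48 (SE 0.09, adjusted p = 0.0041), which is 1.39-fold and under the 1.5-fold needed for a call. The BDB arrays (0.12, 0.27, 0.05 and 0.22) also lay below all DMSO arrays, with a difference of -0.28 (SE 0.09, adjusted p = 0.19). With MEHP the difference was -0.25 (adjusted p = 0.218), with DOS -0.32 (adjusted p = 0.72) and with DINCH -0.10 (adjusted p = 0.751). The DMSO mean was thus the highest of the 6 groups for Nr1d2, and DOM the lowest.

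Dbp encodes the activator of the D-box and is among the most strongly rhythmic clock outputs in many tissues. Its log2 level was 1.57, 2.39, 2.02 and 2.98 on the DMSO arrays and 3.78, 3.40, 3.36 and 3.96 on the DINCH arrays. All DINCH arrays lay above all DMSO arrays, whose own range was wide. Dbp rose by 1.39 with DINCH (SE 0.28, adjusted p = 0.0171), or 2.61-fold, and its other probe gave 1.31 (SE 0.28, adjusted p = 0.021). The difference was 2.20, 1.19 and 0.69 within the 3 slides. Against BDB in shared rows it was 1.80 (SE 0.20, adjusted p = 0.0017), or 3.47-fold. The call against DMSO was lost without DMSO replicate 3 (1.31, adjusted p = 0.0562), with no filter on dim probes (adjusted p = 0.108) and on the arrays in range alone (1.67, adjusted p = 0.07), whereas that against BDB held in all 8 fits that left out 1 array.

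The other compounds left Dbp nearer to DMSO. It read 2.46, 2.32, 2.51 and 2.90 with MEHP, 1.91, 1.35, 0.92 and 1.71 with DOM, 2.17, 1.32, 1.77 and 2.05 with BDB, and 1.83, 1.95 and 2.36 with DOS. The DOM arrays were the lowest group and overlapped DMSO, with a difference of -0.77 (SE 0.31, adjusted p = 0.0873) that was called at -0.99 (adjusted p = 0.0378) without DMSO replicate 1. Within slides the DOM difference was 0.06, -1.29 and -1.27, the first on the slide of DMSO replicate 1, which was the lowest DMSO array. The MEHP difference was 0.31 (SE 0.27, adjusted p = 0.636). With BDB it was -0.41 (SE 0.29, adjusted p = 0.596) and with DOS -0.19 (SE 0.30, adjusted p = 0.944).

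Nfil3 encodes the repressor that competes with DBP for the D-box. It stood at 3.93, 3.21, 3.48 and 3.25 on the DMSO arrays and at 4.37, 4.69, 4.31 and 4.73 on the BDB arrays. All BDB arrays lay above all DMSO arrays, as did 3.3% of all genes tested. The difference was 1.05 (SE 0.17), or 2.08-fold, with an unadjusted p of 0.0002 and an adjusted p of 0.0817, and Nfil3 was not called. It was called with normexp background correction (1.09, adjusted p = 0.0244), with slide as a block (1.05, adjusted p = 0.0479) and with all groups in 1 fit (1.05, adjusted p = 0.000995), and not under the other 7 settings, where the adjusted p reached 0.416 with no filter on dim probes. The difference was 0.44, 1.15 and 1.47 within the 3 slides.

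Nfil3 read 3.84, 3.65, 3.69 and 3.73 with MEHP and 3.15, 2.98, 3.14 and 3.28 with DINCH, and neither was called against DMSO, at 0.26 (adjusted p = 0.462) and -0.33 (adjusted p = 0.235). It read 3.56, 3.26, 3.24 and 3.56 with DOM and 3.74, 3.42 and 3.65 with DOS, inside the range of DMSO. Against the compounds that shared its rows, BDB stood apart, since Nfil3 was lower with MEHP than with BDB (-0.80, SE 0.11, adjusted p = 0.0105) and lower with DINCH than with BDB (-1.39, SE 0.13, adjusted p = 0.000818). These 2 comparisons were chosen after the values had been seen.

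**Figure D3:**
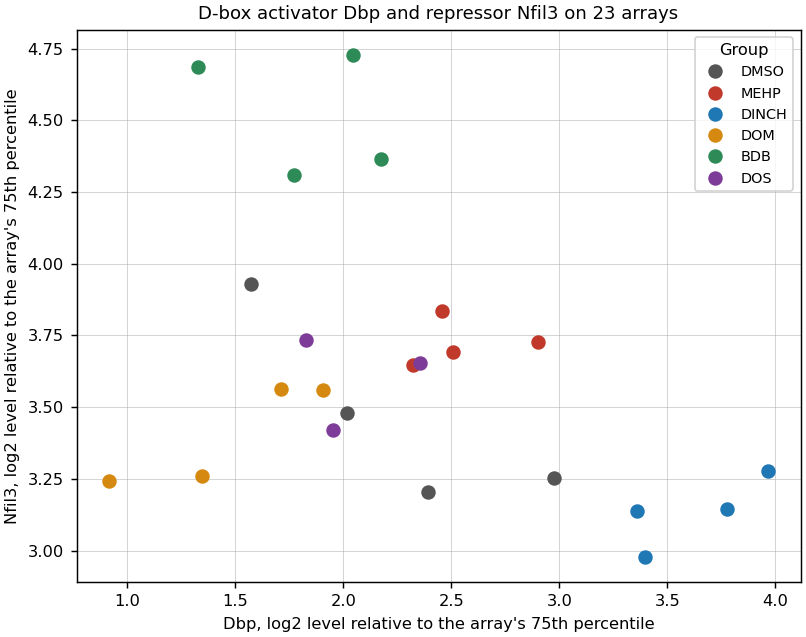
Log2 level of Dbp (x axis) and Nfil3 (y axis), both relative to the array's 75th percentile, with 1 point for each of the 23 arrays coloured by group. The DINCH arrays lie at Dbp 3.36 to 3.96 and Nfil3 2.98 to 3.28, and the BDB arrays at Dbp 1.32 to 2.17 and Nfil3 4.31 to 4.73. DMSO arrays overlap the DINCH range in Nfil3 and the BDB range in Dbp.

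The plot of Dbp against Nfil3 sets the D-box activator beside its repressor. The DINCH arrays had higher Dbp and lower Nfil3 than the BDB arrays, without overlap. The MEHP arrays lay between them in both genes. The DMSO arrays overlapped BDB in Dbp and DINCH in Nfil3, and the DOS arrays overlapped BDB in Dbp. The DOM arrays had low Dbp together with Nfil3 in the DMSO range.

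Compounds were compared with each other in 6 pairs, at the same dose and time, to ask where members differed between them directly. DOM and DOS are diesters of maleic and of succinic acid, which differ by a double bond in the core. Per3 was higher with DOM than with DOS by 0.81 (SE 0.16, adjusted p = 0.011), 1 of 8 members tested beside 15.2% of all genes. This call rested on a dim probe, and the difference was 0.09 (adjusted p = 0.608) with normexp background correction. Nr1d1 was below all DOS arrays on all 4 DOM arrays, with a difference of -0.55 (SE 0.15, adjusted p = 0.0361), which is 1.47-fold. For Dbp the difference was -0.57 (95% interval -1.12 to -0.03, adjusted p = 0.127), for Per1 0.17 (-0.30 to 0.64) and for Nfil3 -0.20 (-0.51 to 0.12). None of these was called, and the intervals do not show that the compounds act alike.

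DOM lay below MEHP and DINCH in Nr1d1 and Dbp, in comparisons where row and treatment cannot be told apart, since DOM shared no row with either. Against MEHP, 2 of 8 members were called beside 19.5% of all genes, Nr1d1 at -1.0 (SE 0.14, adjusted p = 0.000751) and Dbp at -1.08 (SE 0.22, adjusted p = 0.0051). Per3 went the other way at 0.58 (SE 0.12, adjusted p = 0.0056), without overlap and just under 1.5-fold. Cry2 (-0.51, adjusted p = 0.0443) and Nfil3 (-0.32, adjusted p = 0.0425) were lower with DOM, also under 1.5-fold. Against DINCH, 4 of 8 were called, all of them lower with DOM, beside 23.3% of all genes called in either direction and 11.6% called lower. The largest was Dbp at -2.15 (SE 0.22, adjusted p = 0.000154), or 4.45-fold, with all 4 DOM arrays below all DINCH arrays. Cry1 followed at -1.26 (SE 0.33, adjusted p = 0.0168), then Nr1d1 at -1.12 (SE 0.18, adjusted p = 0.0013) and Per1 at -0.75 (SE 0.20, adjusted p = 0.0179). Cry1 overlapped between the groups and was at -0.44 with normexp background correction, below the fold needed. The Per1 call was lost without DINCH replicate 1 (-0.67, adjusted p = 0.0509) or DOM replicate 2 (-0.69, adjusted p = 0.0576).

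MEHP and DINCH, the phthalate monoester and the cyclohexane diester, differed in both D-box factors. Dbp was lower with MEHP (-1.08, SE 0.17, adjusted p = 0.0163) and Nfil3 was higher by 0.59 (SE 0.10, adjusted p = 0.0179), 2 of 8 members beside 2.4% of all genes. In both genes, and in Per3 (-0.70, adjusted p = 0.064), the arrays of the 2 groups did not overlap, 3 of 8 members beside 17.1% of all genes. The call of Dbp was lost without MEHP replicate 1 (-1.05, adjusted p = 0.057), 2 (-1.0, adjusted p = 0.0728) or 3 (-1.06, adjusted p = 0.051). That of Nfil3, which lay just past 1.5-fold, was lost without any 1 of the 4 MEHP arrays, at 0.55 to 0.62, or without DINCH replicate 2 (0.54), and with the replicate block (0.59, adjusted p = 0.0512). Whether same-numbered samples pair between compounds was not tested.

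In the rows they shared, 4 of 8 members were called between DINCH and BDB, beside 9.89% of all genes. The comparisons of DINCH and MEHP with BDB were added after the values had been seen. Dbp, Per1 and Nfil3 had the values given above, and Per3 was higher with DINCH by 1.01 (SE 0.22, adjusted p = 0.0155), or 0.31 with normexp background correction, where it was not called. The calls of Dbp, Per1 and Nfil3 held under all 10 other settings and in all 8 fits that left out 1 array. Cry2 was lower with DINCH by 0.50 (SE 0.12, adjusted p = 0.0234) without overlap, but at 1.41-fold it was not called. Between MEHP and BDB 2 of 8 were called, Per1 and Nfil3, beside 2.59% of all genes. The Per1 call was lost without MEHP replicate 2 (0.65, adjusted p = 0.0569), MEHP replicate 4 (0.59, adjusted p = 0.0501) or BDB replicate 2, where 0.57 fell short of 1.5-fold. Dbp, at 0.72 (SE 0.19, adjusted p = 0.0635), was not called between MEHP and BDB, but was with the replicate block (adjusted p = 0.0374). Nr1d1, at 0.76 between DINCH and BDB (SE 0.26, adjusted p = 0.0801), was called with that block as well (adjusted p = 0.0165). Here too, pairing by replicate number between compounds was not tested.

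**Figure D4:**
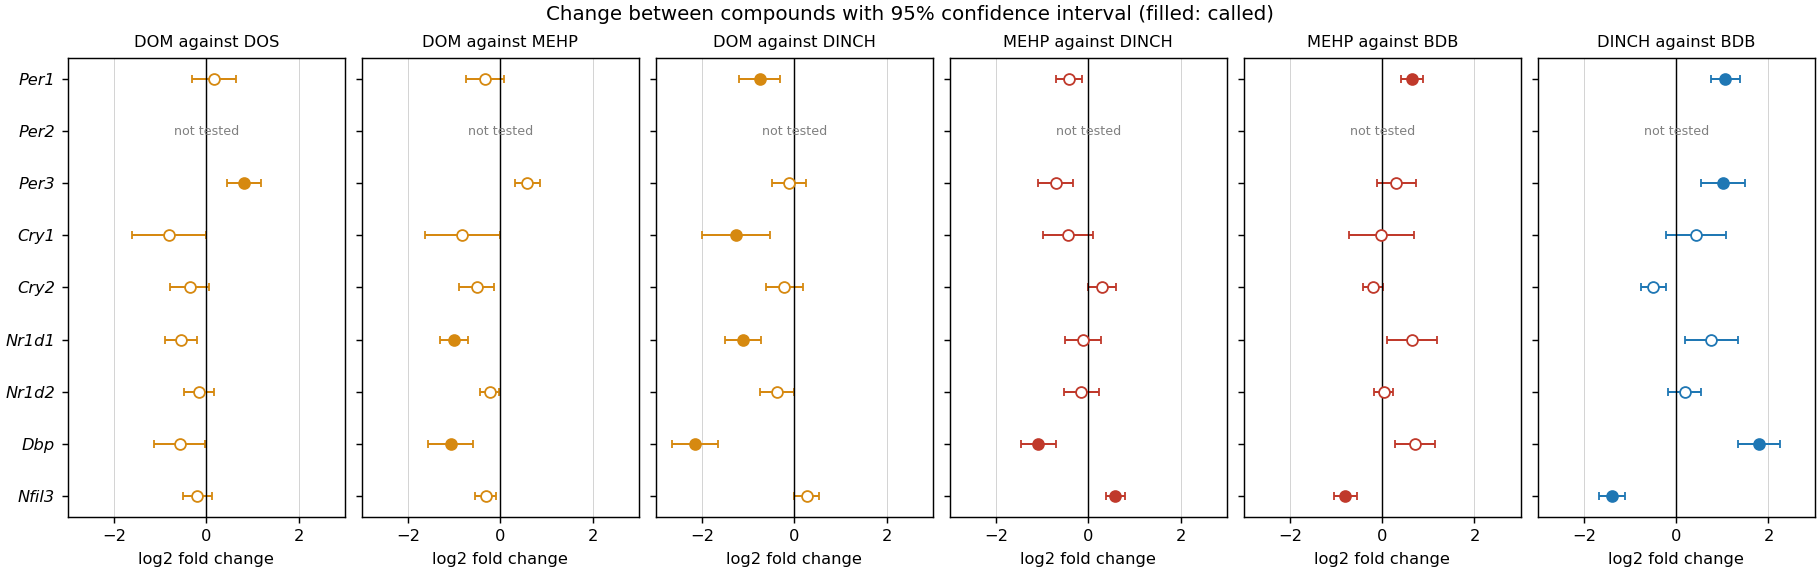
Log2 fold change of each member between pairs of compounds (x axis, first compound minus second), with 95% confidence intervals from limma, filled where called. Dbp is filled in DOM against DINCH (-2.15), DOM against MEHP (-1.08), MEHP against DINCH (-1.08) and DINCH against BDB (1.80), and Nfil3 in MEHP against DINCH (0.59), MEHP against BDB (-0.80) and DINCH against BDB (-1.39).

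The remaining genes of the pathway were read from 6 lists of 43 genes in all, of which 36 were tested in each comparison with DMSO. Of these, 0 were called with MEHP, 4 with DINCH (3 higher and 1 lower) and 12 with DOM (7 higher and 5 lower), and 0 with BDB and with DOS. These stand beside the 8.26% of all genes called with DINCH and the 20.5% called with DOM. An unadjusted p below 0.05 was reached by 11, 14, 20, 10 and 1 of the 36 list genes with MEHP, DINCH, DOM, BDB and DOS, beside 21.6%, 34.4%, 50.9%, 19% and 7.73% of all genes. Npas2, Arntl2, Rora and Rorb, among others, were too dim to be tested.

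Among activators and their partners, Arntl, the gene of BMAL1, fell with DINCH. It was at 0.97, 0.80, 0.98 and 0.81 on the DMSO arrays and at -0.21, 0.30, 0.33 and 0.49 on the DINCH arrays, without overlap. The fit gave -0.66 (SE 0.15, adjusted p = 0.0264) against DMSO, and Arntl fell by 0.72 (SE 0.16, adjusted p = 0.0174) against BDB. Clock itself was not called with any compound, and its difference was -0.61 (SE 0.26, adjusted p = 0.107) with DOM.

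Among the other repressors that act at the E-box, Ciart, the gene of CHRONO, was at -0.45, -1.34, -1.16 and -0.69 on the DMSO arrays and at -2.20, -2.63, -2.94 and -3.07 on the DOM arrays. It fell by 1.80 (SE 0.24, adjusted p = 0.000924) with DOM, the largest change of any pathway gene against DMSO on these arrays. It was also lower with MEHP (-0.76, adjusted p = 0.0885) and DINCH (-0.86, adjusted p = 0.0526), neither of which was called, and against BDB both were called at -1.27 (adjusted p = 0.0116) and -1.37 (adjusted p = 0.00624). Bhlhe41, the gene of DEC2, rose by 1.01 (SE 0.20, adjusted p = 0.0167) with DINCH. Its relative Bhlhe40 differed with DOM by -0.50 (SE 0.14, adjusted p = 0.0264), under 1.5-fold.

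Of the relatives of DBP, Hlf was at -3.91, -3.41, -3.89 and -3.86 on the DMSO arrays and at -2.70, -2.69, -2.72 and -3.14 on the DOM arrays, and it rose by 0.95 (SE 0.15, adjusted p = 0.00209) with DOM. Tef was well above background throughout, and its difference from DMSO lay between -0.21 and 0.11 over the 5 compounds. Hlf and Dbp thus lay on opposite sides of DMSO with DOM, although the Dbp difference was not called.

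**Figure D5:**
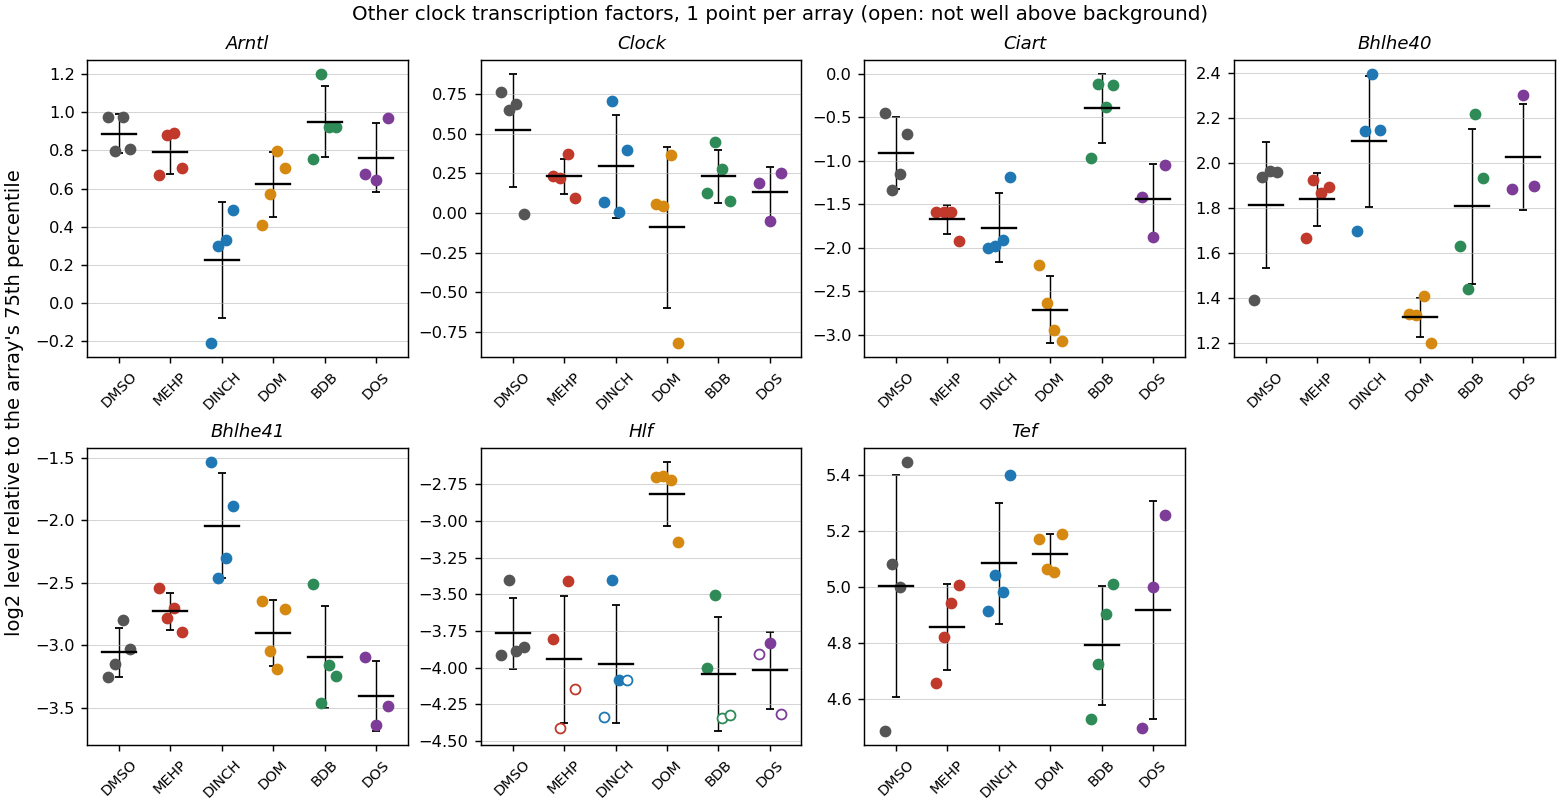
Log2 level of 7 other clock transcription factors relative to the array's 75th percentile (y axis), 1 point per array by group, with the group mean as a line, its SD as a bar and open points where the probe was not well above background. The mean of Arntl is lowest with DINCH (-0.21 to 0.49 on its arrays), Hlf is highest on the 4 DOM arrays (-3.14 to -2.69), and Ciart is lowest with DOM (-3.07 to -2.20).

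Of 10 tested kinases, ligases and partners of PER and CRY, 0 were called with MEHP, DINCH, BDB or DOS. The shares of all genes called were 1.69%, 8.26%, 0% and 0%. With DOM 4 were called, beside 20.5% of all genes. Timeless and Tipin, which form the replication fork protection complex, fell by 1.02 (SE 0.15, adjusted p = 0.00153) and 0.82 (SE 0.12, adjusted p = 0.0012). Btrc, a ubiquitin ligase subunit that acts on PER, rose by 0.60 (SE 0.15, adjusted p = 0.0173), while its dimmer probe gave 0.32 and was not called. Gsk3b was called through its second probe alone (0.94), and its brightest gave 0.25 (adjusted p = 0.119). Among the casein kinase genes, Csnk1a1 differed with DOM by -0.49 (SE 0.10, adjusted p = 0.0071), under 1.5-fold, and Csnk1d and Csnk1e were not called with any compound.

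Among 8 tested output genes 3 were called with DOM, beside 20.5% of all genes. Of these, Wee1, the kinase that holds CDK1 inactive, fell by 0.96 (SE 0.22, adjusted p = 0.00948) with DOM. Alas1, the first enzyme of haem synthesis, rose by 0.82 (SE 0.11, adjusted p = 0.00107) with DOM on its brightest probe and was at 0.09 on the other. Of 10 tested genes of the cAMP and glucocorticoid inputs, 2 were called with DOM, beside 20.5% of all genes. These were Sgk1 (0.77, adjusted p = 0.00327) and Crtc1 (0.63, adjusted p = 0.00951), and both rose. With MEHP and DINCH 0 of the 10 were called by limma, beside 1.69% and 8.26% of all genes, and 2 and 3 of them had an unadjusted p below 0.05.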

How the data were processed

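Expression was measured in 23 TM4 samples on 1-colour Agilent mouse arrays. The deposited scanner files hold spot intensity, and the authors' Feature Extraction 11.5.1.1 step had already subtracted background and removed spatial trend but not scaled the arrays to each other. A deposited table of log2 values, which the authors shifted to the 75th percentile and centred on each probe, was used only as an alternative. Its columns correlated with the scanner values of their own array at 0.9996 or above.

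Here, processed signals were floored at 1, put on the log2 scale and shifted by the 75th percentile of each array. Spots with an outlier flag were dropped, and the values of repeated spots were averaged. To enter a comparison, a probe had to reach the 20th percentile and the scanner's detection flag (well above background) in all arrays of at least 1 of its 2 groups. Each pair of groups was fitted on its own with limma 3.58.1 in R 4.3.3 (lmFit and eBayes, Benjamini-Hochberg adjustment over all probes tested), after the study's methods, with calls made where the adjusted p was under 0.05 and the fold over 1.5. The fit was tested on simulated data. Shares of all genes count a gene as called where any of its probes was.

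Probes were named through their RefSeq accession, which gave 26582 of 55681 probes a gene, of 20145 genes. Each member is given by its brightest probe, and list genes are named from those called in any comparison, with Clock, Tef, Csnk1a1, Csnk1d and Csnk1e named in addition after their values were seen. The members and gene lists were chosen with earlier results of these data known. P-values measure the spread between the arrays of a group. Plots were drawn with matplotlib 3.10.9 in Python 3.11.15. Alternatives were quantile normalization, normexp background correction with an offset of 50, looser or no filters, blocking on slide or on replicate number, a joint fit of the 6 groups, the deposited table, 1 probe per gene, leaving out each array, and, chosen after seeing the data, only arrays with all quality measures in range and BDB as the reference.

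Replicate numbers were taken as a possible pairing where the deviations of every same-numbered pair from their group means correlated above 0.1. That held for DINCH (0.17 to 0.50), BDB (0.25 to 0.43) and DOS (0.20 to 0.45) and not for MEHP (-0.14 to 0.45) or DOM (0.04 to 0.43). Pairing and a shared slide cannot be told apart by this check. All main fits were unpaired, and the replicate block was run only as an alternative. With DINCH against DMSO that alternative also called Per3 (0.89, adjusted p = 0.0413). Cell viability and qPCR were not analysed here. The results of some genes are not reported here.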

Additional observations from a re-analysis of the deposited data

Results flagged for a closer look

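In 4 of the 45 sets of arrays examined, a set being 1 member in 1 group of 4 arrays, a single array lay far from the other 3. Chance alone sets apart about 1 in 20 such sets. For Nr1d1, DMSO replicate 4 was at a log2 level of 0.19 while the others lay between -0.65 and -0.60, and the fall with DOM was called without that array too. For Nr1d2, MEHP replicate 1 was at 0.40 and the others between 0.11 and 0.15. For Per3, BDB replicate 3 was at -3.61 and the others between -4.45 and -4.33, not well above background. For Cry1, BDB replicate 1 was at -4.13, not well above background, and the others between -2.95 and -2.81. DMSO replicate 4 and BDB replicate 3 were among the arrays whose quality measures were not all in range, and the part of this in the values was not tested.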

How the results depend on the processing

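Counts of called members that moved by over 1.5 times are given first. With no filter on dim probes they were 0 with MEHP (1 in the report), 1 with DINCH (2) and 0 for DOM against DOS (1). In that fit, which takes in more probes, they were 2 for DOM against DINCH (4), 0 for MEHP against DINCH (2) and 0 for MEHP against BDB (2). With detection on 1 array they were 0 with MEHP, 1 with DINCH and 0 for MEHP against DINCH. On the arrays in range alone, which are fewer, they were 0 with DINCH, 0 for DOM against DOS, 1 for DOM against MEHP, 2 for DOM against DINCH, 0 for MEHP against DINCH and 1 for MEHP against BDB. BDB against DMSO went from 0 to 1 (Nfil3) with normexp, with slide as a block and with all groups in 1 fit, DOM against DMSO to 3 with all groups in 1 fit, and DOM against DOS to 0 with normexp. Among other calls, all groups in 1 fit added Per3 with DINCH against DMSO (0.89, adjusted p = 0.0228) and Nr1d1 for DINCH against BDB (0.76, adjusted p = 0.0218), normexp added Dbp for MEHP against BDB (0.71, adjusted p = 0.0118), and the authors' table added Per3 for DOM against MEHP (0.59, adjusted p = 0.00513). Per3 for DINCH against BDB was lost with no filter (1.01, adjusted p = 0.101) and with normexp (0.31, adjusted p = 0.0742), and Cry1 for DOM against DINCH with normexp (-0.44). The cause of these changes was not tested.

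Leaving out 1 array gave 0 to 1 called members with MEHP, 1 to 3 with DINCH, 1 to 2 with DOM, 0 to 0 with BDB and DOS, 1 to 2 for DOM against DOS, 2 to 5 for DOM against MEHP, 3 to 4 for DOM against DINCH, 0 to 2 for MEHP against DINCH, 1 to 4 for MEHP against BDB and 3 to 5 for DINCH against BDB.

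With the replicate block, the count was 1 for MEHP against DINCH (Dbp) and 3 with DINCH against DMSO, with Per3 added at 0.89, and Dbp was called for MEHP against BDB at 0.72 and Nr1d1 for DINCH against BDB at 0.76. It changed no other call of a member. For MEHP and DOM against DMSO not every same-numbered pair correlated above 0.1. Of their treated arrays 3 of 4 and 2 of 4 correlated best with their own number. The lowest pairs were MEHP replicate 2 (-0.14) and DOM replicate 2 (0.04), both on another slide than DMSO replicate 2. Pairing and a shared slide cannot be told apart by this check. Pairing between compounds was not tested.

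Values near 0 changed sign, none of them called. With normexp, MEHP against DMSO was -0.027 for Nr1d1 and -0.0010 for Per3, and MEHP against BDB was -0.011 for Nr1d2 and -0.015 for Per3. On the arrays in range, Cry1 with MEHP was -0.13, Nr1d2 with DINCH 0.13 and Dbp with DOS 0.098. Cry1 in MEHP against BDB was 0.076 with quantile normalization and 0.16 with slide as a block. Leaving out 1 array gave, against DMSO, -0.020 to 0.28 for Nr1d1 and -0.080 to 0.48 for Per3 with MEHP, -0.20 to 0.065 for Nr1d2 with DINCH, -0.15 to 0.095 for Nfil3 with DOM, and -0.42 to 0.052 for Dbp and -0.11 to 0.085 for Cry2 with DOS. It gave -0.22 to 0.031 for Per3 in DOM against DINCH, and -0.32 to 0.18 for Cry1 and -0.033 to 0.069 for Nr1d2 in MEHP against BDB.

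Per2, Per3 and Cry1 lay near background, where signal over background limits what can be seen, and the number of arrays limits the precision of all members. Quantile normalization moved no group level of a member by more than its spread, and no scaling moved the median of all genes by more than 0.1.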

Other observations

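The genes whose log2 level followed a member most closely over the 23 arrays were looked up among 12166 genes. These correlations describe arrays that share treatment groups and scaling, and they carry no test. For Per1 the closest were Rxra (r = 0.95), which encodes a nuclear receptor partner, Dennd3 (0.94) and Fam131a (0.93). For Dbp they included Tent5b (0.92) and Tmem192 (0.91). For Nfil3 they were Ppp2r2a (0.91), a regulatory subunit of protein phosphatase 2A, Lins1 (0.91) and Myc (0.90).

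Correlations of the remaining members were lower. Nr1d1 was closest to Sf3b2 (0.87), Psmd2 (0.87) and Rnpep (0.86), and Cry2 to Otub2 (0.88), Tmem74 (0.88) and Gdf15 (0.87). Per3 was closest to Npc1 (0.85), Pnpla7 (0.85) and Dlg1 (0.85), Cry1 to Cibar1 (0.84), and Nr1d2 to Sfmbt2 (0.77). No other member of the 9 and no gene of the 6 pathway lists was among the 3 closest genes of any of these 8 members.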
